A study of Mus musculus with 35 samples.

Results

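The upper side population (USP) of mouse bone marrow was compared with CD8 T lymphocytes (CD8) sorted from the same tissue. Side population (SP) cells pump out the dye Hoechst and are rich in haematopoietic stem cells. They were sorted here as Sca-1+ and Gr-1-, and a USP sample was gated in the upper part of that region. The CD8 cells were sorted for CD3 and CD8, so that the transcripts of the CD3 chains and of CD8 follow the sort. The comparison holds every ten-cell USP sample (N, O and Z) and every ten-cell CD8 sample (B, C and D), which is 6 of the 9 ten-cell samples and 12 of the 35 arrays. The 3 ten-cell samples of the lower side population (LSP) stayed out of the comparison, as did the arrays of 12 single SP cells and of 5 single-cell equivalents (SCE), in which a cell's worth of a lysate of many SP cells was amplified. The mice were C57Bl/6 CD45.1 animals of 7 to 9 weeks, with no treatment and no engineered allele. The labels of the USP samples give no sex and those of the CD8 samples give male donors, so that a difference of sex between the donors cannot be told apart from the cell type. Each experiment drew on the marrow of a single mouse, and no label ties a sample to its mouse. The p-values therefore measure the spread between these samples, part of which may be technical.

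Every sample pooled several amplifications of 10 sorted cells and was read on 2 Affymetrix MG-U74Av2 arrays. A probe set is a group of short probes for 1 transcript. Its level is the log2 of the deposited signal intensity, averaged over the 2 arrays, and every value under a log2 level of 7 was set to 7, the floor. A population with all its samples at the floor has no measured level or spread, and a fold change against it is a lower bound, written here as "at least". Each difference is the USP level minus the CD8 level on the log2 scale. Of 12422 probe sets that are not controls, 6177 lay above the floor on at least 1 of the 12 arrays and were tested with limma, and a probe set was called at a Benjamini-Hochberg adjusted p under 0.05. The other 6245 were at the floor on all 12 arrays. A probe set at the floor in every sample of 1 population was tested only because the other population exceeded it. Its difference could then go in 1 direction only. The counts and medians of gene lists leave out the genes at the floor on all 12 arrays.

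Haematopoietic stem cells renew themselves and give rise to every blood lineage. Their identity rests on a set of transcription factors, among them the Lmo2 and Tal1 complex, Myb and Meis1, and on receptors that hold them in the marrow niche. CD8 T cells are mature lymphocytes that recognise peptides on class I molecules of the major histocompatibility complex (MHC) through the T-cell receptor. Engagement of the receptor activates Lck, a kinase held by the coreceptor that phosphorylates the CD3 and zeta chains, and Zap70, which binds the phosphorylated chains. Activated CD8 cells kill through granules that hold perforin and granzymes. Resting CD8 cells in marrow depend on interleukin 7 for survival.

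About the same share of probe sets was measured in both populations, with 26.9% to 29.8% of probe sets above the floor on USP arrays and 28.6% to 29.8% on CD8 arrays. Samples of one population were less alike in USP than in CD8. The correlation of levels between samples was 0.613 to 0.656 within USP, against 0.768 to 0.800 within CD8, and between a USP and a CD8 sample it was 0.492 to 0.541. The 2 arrays of a sample correlated at 0.981 to 0.989 in USP and at 0.989 to 0.992 in CD8. The median standard deviation (SD) between samples was 0.59 in USP and 0.31 in CD8 over all probe sets tested. For probe sets with a mean level over 10 in the population it was 0.55 in USP (967 probe sets) and 0.32 in CD8 (1061 probe sets). Of the probe sets tested, 508 (8.2%) were at the floor in 1 USP sample and over a level of 10 in another, against 236 (3.8%) in the CD8 samples. The deposited values are also of 2 kinds. The 4 arrays of USP samples N and O hold 25.3% to 28.1% negative intensities, whereas the arrays of USP sample Z and of all CD8 samples hold positive values only. The kind of value goes partly with the population. Its part in the differences was not tested on its own. The kind was added as a term in a fit of all ten-cell arrays, LSP included, with the sample as a random block. That fit differs from the main one in more than this term. Another fit held USP sample Z as the only USP sample.

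**Figure D1:**
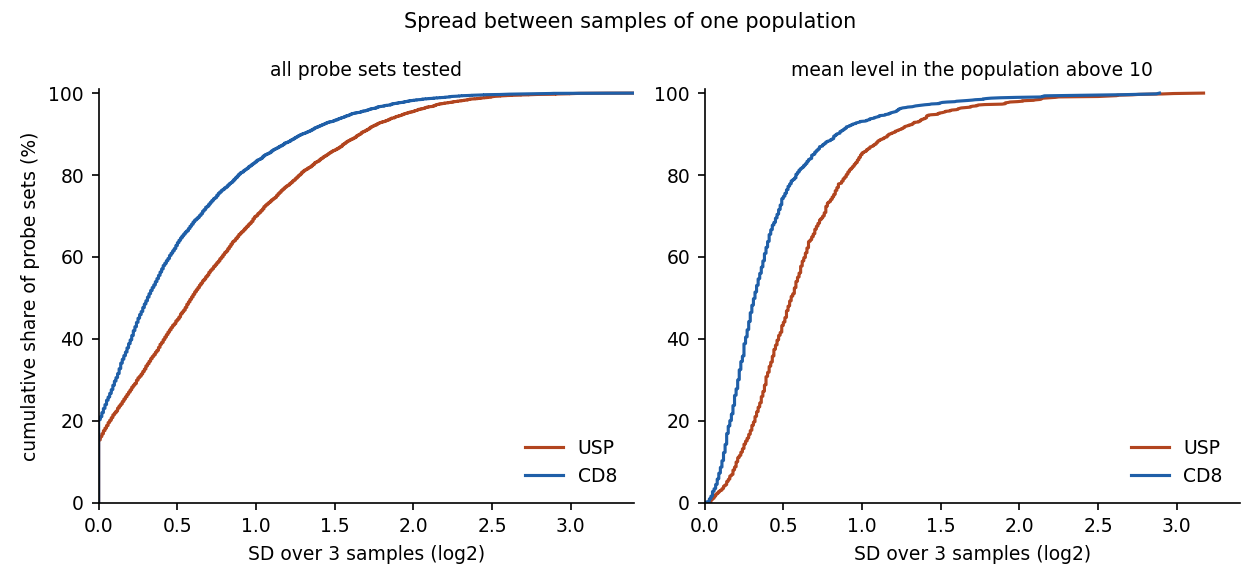
Cumulative share of probe sets (vertical axis, percent) by the SD over the 3 samples of a population (horizontal axis, log2), for USP and for CD8, over all probe sets tested (left) and over those with a mean level above 10 in that population (right). The USP curve lies to the right of the CD8 one, with medians of 0.59 for USP and 0.31 for CD8 on the left and of 0.55 for USP and 0.32 for CD8 on the right.

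In all, 410 probe sets (6.64%) were called. Of these 196 (3.17%) were higher in USP and 214 (3.46%) were lower in USP. The called differences were large. Their median size was 2.34 (range 0.83 to 4.79) for the probe sets higher in USP, which represent 163 genes, and 2.67 (range 0.73 to 5.97) for those lower in USP, which represent 179 genes. All 3 CD8 samples were at the floor for 75 of the 196, and all 3 USP samples were at the floor for 98 of the 214. In pools of cells, a transcript made by fewer of the cells and one made at a lower level in each cell cannot be told apart. At an unadjusted p under 0.05 there were 572 probe sets higher and 555 lower. The 3 USP levels lay above the 3 CD8 levels for 689 probe sets (11.2%) and below them for 685 (11.1%). An exact permutation of 3 samples against 3 cannot give a p under 0.1. The number called higher in USP rested on single samples. It was 340 without USP sample Z, 79 without CD8 sample B, 102 without CD8 sample C and 90 without CD8 sample D, whereas the number called lower was between 168 and 225 with any 1 sample left out. With the kind of values as a term, 246 were called higher and 320 lower, and 127 and 155 of these were the same probe sets. With USP sample Z as the only USP sample, 755 were called higher and 270 lower, of which 145 and 95 were the same.

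**Figure D2:**
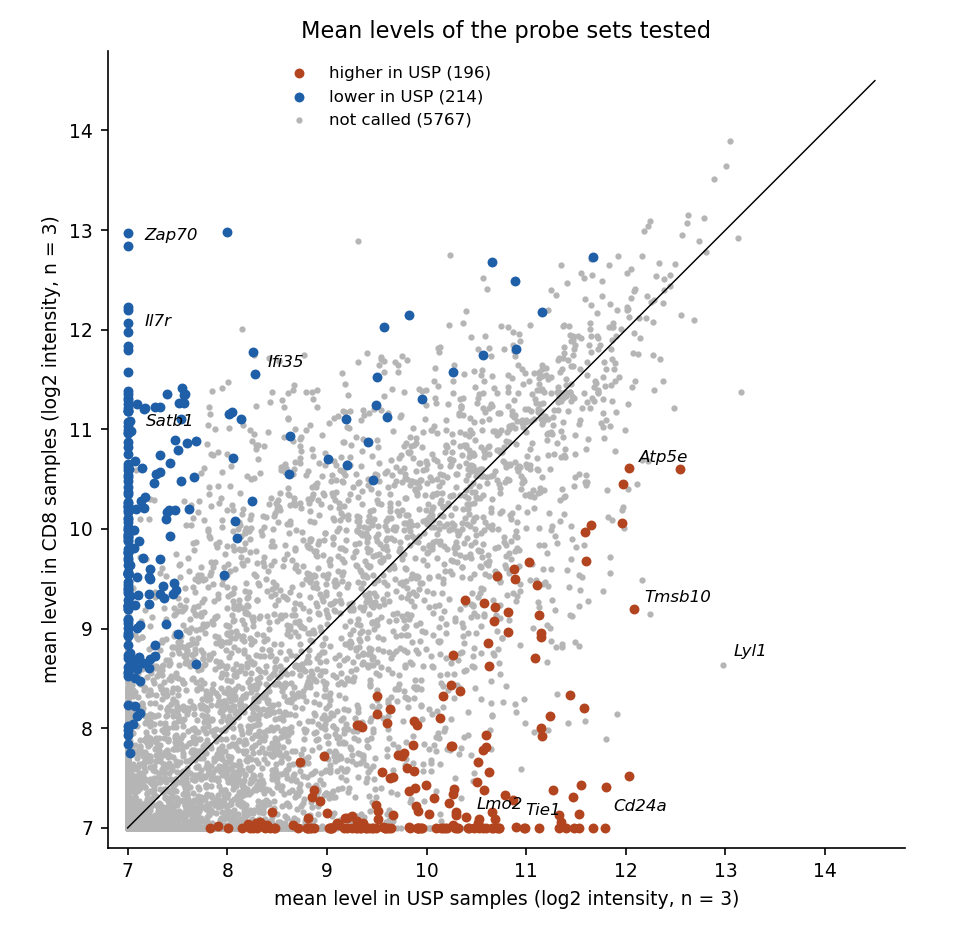
Mean log2 level of each tested probe set in the 3 USP samples (horizontal axis) and in the 3 CD8 samples (vertical axis), with called probe sets coloured by direction and a line of equal levels. The 196 probe sets called higher in USP and the 214 called lower lie on opposite sides of the line, many of them where the other population is at or near the floor of 7.

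The transcripts that mark the 2 populations did not overlap. Lmo2, the bridging protein of the stem cell transcription factor complex, had levels of 10.17, 10.41 and 11.54 in USP samples N, O and Z and was at the floor in all 3 CD8 samples. It was at least 13-fold higher in USP (difference 3.71, standard error (SE) 0.39, adjusted p = 0.00842). A 2nd probe set of Lmo2 was dimmer, at 9.32, 8.48 and 8.33 in USP and at the floor in CD8, and was called as well (difference 1.71, adjusted p = 0.0367). The call of this 2nd probe set was lost without USP sample O or any one CD8 sample (adjusted p 0.0816 to 0.13) and with the kind of values as a term (0.0972). Myb, a transcription factor that haematopoietic stem and progenitor cells need, was at 9.46, 10.33 and 10.50 in USP samples N, O and Z and at the floor in every CD8 sample. It was at least 8.55-fold higher in USP (difference 3.10, SE 0.31, adjusted p = 0.00689). A 2nd tested probe set of Myb differed in the same direction and was not called. By their called probe sets, Lmo2 and Myb were above the floor in each USP sample and at it in each CD8 sample. Zap70, the kinase that binds the engaged T-cell receptor, was at the floor in the 3 USP samples and had levels of 12.91, 12.74 and 12.87 in CD8 samples B, C and D. It was at least 57.2-fold lower in USP (difference -5.84, SE 0.12, adjusted p = 0.000398). Il7r, the receptor chain for interleukin 7, was at the floor in the 3 USP samples and at 12.34, 11.94 and 12.40 in CD8 samples B, C and D, a fold of at least 37.5 lower in USP (difference -5.23, SE 0.17, adjusted p = 0.000511). The 3 CD8 samples lay close to each other for both genes, and no USP sample held either. A 2nd probe set of Zap70 was called lower as well (difference -4.21, adjusted p = 0.000491), whereas a 3rd had CD8 levels of 7.0, 9.71 and 7.28 and was not called.

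**Figure D3:**
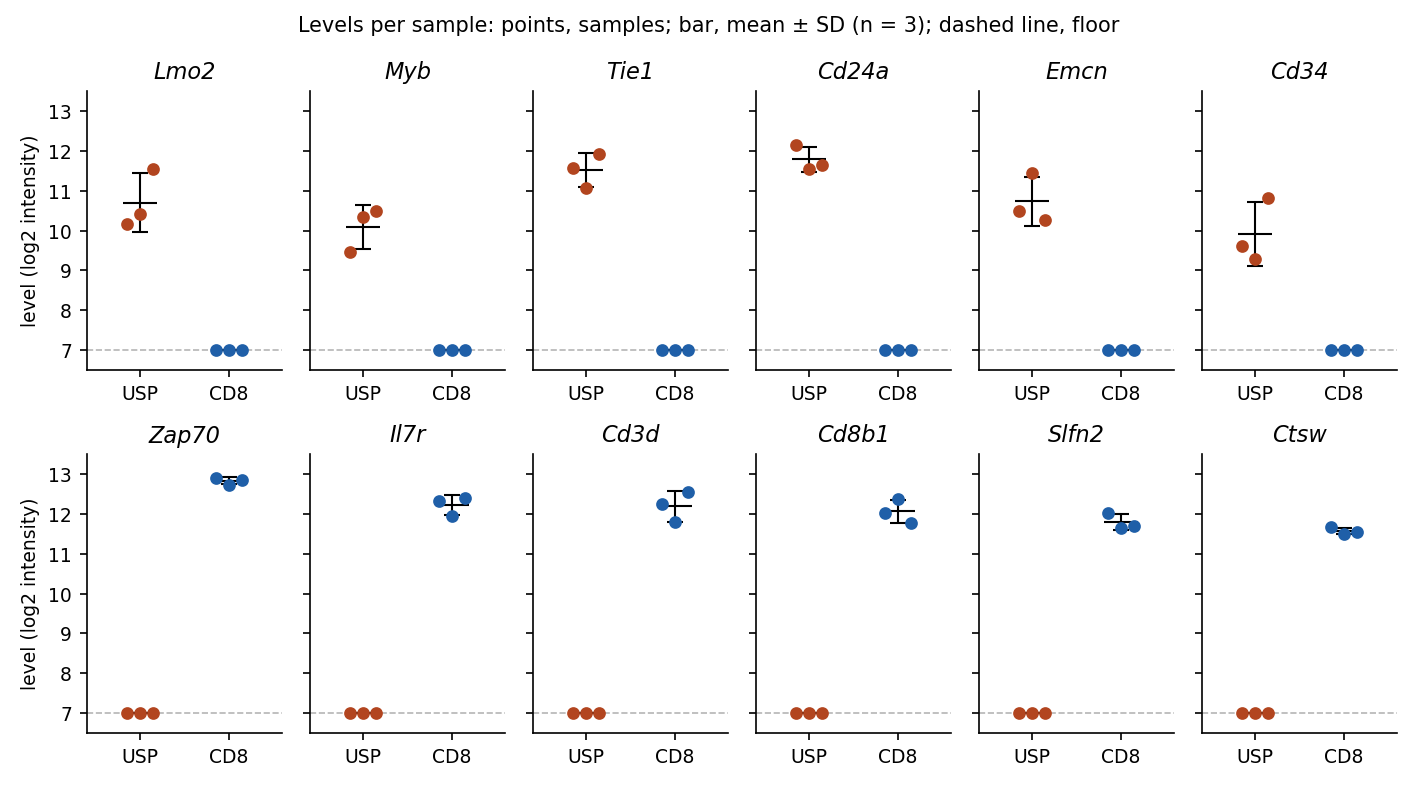
Level (vertical axis, log2 intensity) of Lmo2, Myb, Tie1, Cd24a, Emcn and Cd34 (upper row) and of Zap70, Il7r, Cd3d, Cd8b1, Slfn2 and Ctsw (lower row), with USP left of CD8, a point for each of the 3 samples, the mean with its SD, and a dashed line at the floor of 7. Genes of the upper row are above 9 in each USP sample and at the floor in CD8, and those of the lower row are at the floor in USP and above 11 in each CD8 sample.

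Markers of the sorted cells and of other marrow cells were read in the same way, as sums of linear intensities over each list. Of 7 stem cell markers on the array, 6 were above the floor in all USP samples. The other, Kit, stayed at the floor on each of the 12 arrays, which does not show that USP cells lack it. In the paper, single-cell arrays almost never detected Kit, whereas quantitative PCR found its transcript in part of the stem cells tested. The paper also states that SP cells carry abundant Kit protein. The summed intensity of the 7 markers was 5051 to 11139 in USP and 896 to 1351 in CD8. With every gene at the floor the sum is 896. All 7 T-cell markers were at the floor in USP (sum 896), against 25234 to 28829 in CD8. Sca-1, which was used in the USP sort, is not given, since no probe set carries its gene symbol alone in the annotation used here. Granulocyte markers summed to 3279 to 7121 in USP and to 896 to 1093 in CD8, with Mpo, Elane and Ly6g at the floor on all 12 arrays. Monocyte markers summed to 1851 to 3682 in USP and 640 to 2058 in CD8, with Adgre1 and Itgam at the floor. Erythroid markers summed to 1966 to 2744 in USP and 384 to 2343 in CD8, and megakaryocyte markers to 530 to 757 in USP and 384 to 389 in CD8. B-cell markers summed to 552 to 1652 in USP and 512 to 9031 in CD8, and markers of natural killer (NK) cells were at the floor in USP and summed to 916 to 1100 in CD8. Of the 2 NK markers, Ncr1 was at the floor on all 12 arrays, so that the CD8 sum above the floor came from Klrd1. The part of other cells in the differences reported here was not tested.

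Several stem cell transcription factors were higher in USP. Of 19 tested genes of this list, 4 were called higher and none lower, with a median difference of 1.40. Over all 4817 genes tested, with 1 probe set each, the median difference was 0.01, and 151 were called higher and 164 lower. With 1 sample left out in turn the list held 3 to 6 genes called higher. Beside Lmo2 and Myb these were Meis1 and Hhex. Meis1, a homeobox factor of stem cells, was at 10.50, 9.52 and 9.74 in USP samples N, O and Z and at the floor in CD8, a fold of at least 7.58 (difference 2.92, adjusted p = 0.00653). Hhex, a homeobox factor of blood and endothelial precursors, was at 8.35, 9.68 and 9.35 in USP against 7.0, 7.0 and 7.09 in CD8 (difference 2.10, adjusted p = 0.0396), and its adjusted p was 0.0838 to 0.143 without USP sample O or Z or any one CD8 sample. The levels of these genes did not overlap between the populations. The list's largest difference, that of Lyl1, and that of Nfe2 did not pass the test. Lyl1, a basic helix-loop-helix factor related to Tal1, was at 12.89, 13.00 and 13.05 in USP against 7.07, 7.0 and 11.85 in CD8 (difference 4.34, adjusted p = 0.193). Nfe2, a factor of the megakaryocyte and erythroid lineages, was at 11.59, 11.54 and 11.62 in USP against 7.0, 7.0 and 10.21 in CD8 (difference 3.52, adjusted p = 0.126). For both genes CD8 sample D lay far above the other CD8 samples, and without it the adjusted p was 0.00249 for each. A 2nd probe set of Lyl1 had the same pattern, with 10.74, 10.72 and 10.40 in USP and 7.0, 7.0 and 9.82 in CD8. Tal1 was at 8.91, 8.11 and 10.07 in USP and at the floor in CD8, but did not pass the test (difference 2.03, adjusted p = 0.107). Foxa3 (9.97, 10.17 and 8.31 in USP, floor in CD8) had an adjusted p of 0.0691, and of 0.00231 without USP sample Z.

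The list of stem cell surface proteins, which also holds the protease inhibitor Ctla2b, had the most genes called higher. Of 16 tested genes, 9 were called higher and none lower, and the median difference was 2.75. The number was 6 without USP sample O and 5 without any one of the CD8 samples. Cd24a, a small glycosylated surface protein that is lost as T cells mature, was at 12.15, 11.56 and 11.66 in USP samples N, O and Z and at the floor in CD8. It had the largest difference of all genes higher in USP, at least 27.7-fold (difference 4.79, SE 0.20, adjusted p = 0.000511). Tie1, an endothelial and stem cell receptor related to the angiopoietin receptor Tek, was at 11.58, 11.07 and 11.93 in USP and at the floor in CD8, at least 23-fold higher (difference 4.53, SE 0.25, adjusted p = 0.000989). A 2nd tested probe set of Tie1 differed in the same direction and was not called. Tek itself was at the floor on all 12 arrays. Adgrg1, an adhesion receptor of the G protein-coupled family, was at 10.95, 10.96 and 11.49 in USP and at the floor in CD8 (difference 4.13, adjusted p = 0.000653). Emcn, the sialomucin endomucin, was at 10.50, 11.44 and 10.26 in USP (difference 3.73, adjusted p = 0.0052), and F11r, a junctional adhesion molecule, at 10.91, 10.27 and 10.80 (difference 3.66, adjusted p = 0.00106), both with every CD8 sample at the floor. Each of these 5 calls held with any 1 sample left out. The other 4 calls were lost with some samples left out. Cd34, the sialomucin used to grade stem cells, was at 9.62, 9.28 and 10.81 in USP and at the floor in CD8 (difference 2.91, adjusted p = 0.023), with an adjusted p of 0.0653 to 0.0979 without USP sample N or any one CD8 sample. Ctla2b, a cysteine protease inhibitor, was at 9.69, 9.92 and 11.19 in USP against 7.0, 7.56 and 7.46 in CD8 (difference 2.93, adjusted p = 0.0279), with an adjusted p of 0.0718 to 0.112 without USP sample O or any one CD8 sample. The tetraspanins Cd63 (difference 2.91, adjusted p = 0.0312) and Cd9 (difference 2.04, adjusted p = 0.0285) completed the list. The call of Cd63 was lost without USP sample O or any one CD8 sample (adjusted p 0.0873 to 0.124) and that of Cd9 with 5 of the 6 samples left out (0.0756 to 0.109). Procr, the endothelial protein C receptor, was at 8.43, 9.95 and 10.42 in USP and at the floor in CD8, with an adjusted p of 0.0632. Thy1, which stem cells carry at a low level and T cells at a high one, was at 9.97, 10.56 and 7.0 in USP against 11.32, 11.40 and 11.66 in CD8 (difference -2.29, adjusted p = 0.33).

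The sequences before the starts of Tie1 and Emcn are shown because the probe sets given above were at the floor in every CD8 sample and in no USP sample. They are from the RefSeq promoter table (build GRCm38.p6), which held 4 of the 6 genes looked up and not Lmo2 or Cd24a, and are printed 5' to 3' on the strand of the gene, outside the annotated gene. Capitals mark AGGAAG, a core of the sites of ETS factors, on either strand. Tie1 (chr4:118489850-118490099, minus strand) holds a match on the opposite strand, 219 to 214 bases before the start. Emcn (chr3:137340828-137341061, plus strand) holds a match on the opposite strand 174 to 169 bases before the start and a match on the printed strand 93 to 88 bases before it. No match overlapped another. AGGAAG occurs in 29.5% of the 32851 windows of 250 bases in the table, so that a match is a description of the sequence only.
Tie1: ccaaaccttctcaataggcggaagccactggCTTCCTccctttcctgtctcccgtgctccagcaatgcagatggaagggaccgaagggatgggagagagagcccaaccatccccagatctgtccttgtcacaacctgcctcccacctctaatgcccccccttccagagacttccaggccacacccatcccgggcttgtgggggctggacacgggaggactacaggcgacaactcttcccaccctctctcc
Emcn: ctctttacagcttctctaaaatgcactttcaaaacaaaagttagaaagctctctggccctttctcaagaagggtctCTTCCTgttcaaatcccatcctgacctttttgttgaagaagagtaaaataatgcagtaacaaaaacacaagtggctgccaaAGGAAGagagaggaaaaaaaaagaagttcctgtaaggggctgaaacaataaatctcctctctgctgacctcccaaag

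Other genes with the largest differences higher in USP had varied roles. S100a1, a calcium-binding protein best known from muscle, was at 11.46, 11.93 and 11.63 in USP and at the floor in CD8, at least 25.5-fold higher (difference 4.67, adjusted p = 0.000511). Tnni3, cardiac troponin I, was at 10.93, 11.32 and 12.20 in USP and at the floor in CD8, at least 22.3-fold higher (difference 4.48, adjusted p = 0.0033). Gstm1, a glutathione transferase, was at 11.75, 11.44 and 11.39 in USP against 7.0, 7.0 and 7.41 in CD8, 21.0-fold higher (difference 4.39, adjusted p = 0.000514). The probe sets of S100a1 and Gstm1, like those of Tie1 and Zfp771, are of the kind that Affymetrix marks as matching several members of a family, so that related genes may add to them. In each of these 3 genes the lowest USP sample was more than 3 log2 units above the highest CD8 sample. Ell2, an elongation factor of RNA polymerase II, was at 10.64, 10.89 and 12.47 in USP and at the floor in CD8 (difference 4.33, adjusted p = 0.0124). Rab11a, a GTPase of recycling endosomes, was at 11.84, 11.91 and 10.25 in USP against 7.0, 7.38 and 7.0 in CD8 (difference 4.21, adjusted p = 0.0125), but its other probe set was at 10.86, 10.99 and 8.03 in USP against 11.09, 10.69 and 11.13 in CD8 and was not called (difference -1.01, adjusted p = 0.599). Zfp771, a zinc finger protein, was at 11.06, 11.16 and 12.45 in USP against 7.0, 7.08 and 8.21 in CD8 (difference 4.12, adjusted p = 0.0158). These 3 calls were lost with samples left out, with an adjusted p of 0.063 to 0.0665 for Ell2 and of 0.0558 to 0.0674 for Rab11a without any one CD8 sample, and of 0.0529 to 0.076 for Zfp771 without USP sample O or CD8 sample B or C. Ptov1 (difference 4.38, adjusted p = 0.00778), the phospholipase Plcg2 (3.89, adjusted p = 0.011), the lysosomal membrane protein Laptm4b (3.99, adjusted p = 0.0059) and the tetraspanin Cd81 (3.48, adjusted p = 0.000511) were called as well, and of these only Plcg2 was lost with a sample left out (adjusted p 0.0576 to 0.0605 without any one CD8 sample). Cd81 had the least varied levels of these, with 10.44, 10.65 and 10.35 in USP and the floor in CD8. Tfdp1, the partner of E2F factors, was at 11.96, 12.66 and 11.47 in USP against 7.0, 8.56 and 7.0 in CD8 (difference 4.51, adjusted p = 0.0142), with an adjusted p of 0.0522 to 0.0674 without USP sample N or O or CD8 sample B or D. Clic4, a chloride channel protein, was called in 2 probe sets, at 10.47, 10.57 and 11.15 and at 10.26, 10.18 and 10.15 in USP, with CD8 at the floor in both.

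Hoechst efflux defines the side population, and Abcg2 is the transporter known to perform it in stem cells. None of 6 tested efflux transporters was called, and their median difference was 0.60. Over all 4817 genes tested, 151 were called higher and 164 lower. At that share a list of 6 genes may well hold no call. Abcg2 was at 9.59, 10.10 and 11.67 in USP against 9.19, 7.0 and 7.0 in CD8. Each USP level was above each CD8 level, but CD8 sample B lay close to USP sample N and the difference of 2.72 did not pass the test (adjusted p = 0.174). Abcb1a and Abcc1, other pumps of the family, were at the floor on all 12 arrays. Among 10 tested cytokine receptors of progenitors, 1 was called higher and none lower, with a median difference of -0.20. This was Flt3, the receptor tyrosine kinase of multipotent progenitors, at 8.92, 9.70 and 10.13 in USP and at the floor in CD8 (difference 2.58, adjusted p = 0.0153), with an adjusted p of 0.0605 to 0.0725 without USP sample O or any one CD8 sample. Il6st, the signalling chain of the interleukin 6 family, was at 10.03, 7.0 and 9.28 in USP against 12.21, 11.78 and 11.26 in CD8 (difference -2.98, adjusted p = 0.14).

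Genes of the T-cell receptor complex gave some of the largest differences lower in USP. Of 18 tested genes, 6 were called lower and none higher, 10 lay below all CD8 levels in every USP sample, and the median difference was -1.93. Over all 4817 genes tested, 164 were called lower and 539 lay below all CD8 levels in every USP sample. With 1 sample left out in turn 6 or 7 were called lower. All 4 of the invariant chains were at the floor in each USP sample and in each CD8 sample above it, as a sort on CD3 would select. Cd3d was at 12.25, 11.79 and 12.56 in CD8 samples B, C and D, at least 36.8-fold lower in USP (difference -5.20, SE 0.23, adjusted p = 0.000514). Cd3e was at 10.84, 11.28 and 11.41 in CD8 (difference -4.18, adjusted p = 0.000563) and Cd3g at 10.96, 10.81 and 11.31 (difference -4.03, adjusted p = 0.000514). Cd247, the zeta chain that recruits Zap70, was at 9.04, 9.06 and 9.58 in CD8 (difference -2.23, adjusted p = 0.00455). Txk, a kinase of the Tec family in T cells, was at the floor in USP and at 10.55, 10.90 and 10.33 in CD8 (difference -3.59, adjusted p = 0.000843). Rhoh, a GTPase that T-cell receptor signalling needs, was at 7.0, 9.84 and 9.13 in USP against 11.68, 11.17 and 11.35 in CD8. It was present in 2 USP samples and did not pass the test (difference -2.74, adjusted p = 0.137). Ptprc, the phosphatase CD45 of all leukocytes, was at 9.51, 9.61 and 9.93 in USP against 9.94, 9.99 and 10.02 in CD8 (difference -0.31, adjusted p = 0.398).

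Cd3d and Cd3g, both called, lie side by side on chromosome 9 and are transcribed away from each other, with starts 1355 bases apart. Their upstream sequences from the same table are shown because both genes were at the floor in every USP sample. Capitals mark AGGAAG on the opposite strand in Cd3d (chr9:44981536-44981768, plus strand, 198 to 193 bases before the start) and AGATAA, a core of GATA sites, on the printed strand in Cd3g (chr9:44980432-44980681, minus strand, 104 to 99 bases before the start). AGATAA, searched on both strands, occurs in 9.99% of the windows of 250 bases.
Cd3d: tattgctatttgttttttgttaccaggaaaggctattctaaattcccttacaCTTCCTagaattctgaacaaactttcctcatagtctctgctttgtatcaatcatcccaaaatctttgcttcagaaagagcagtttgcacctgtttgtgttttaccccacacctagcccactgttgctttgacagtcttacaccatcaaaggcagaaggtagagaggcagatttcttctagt
Cd3g: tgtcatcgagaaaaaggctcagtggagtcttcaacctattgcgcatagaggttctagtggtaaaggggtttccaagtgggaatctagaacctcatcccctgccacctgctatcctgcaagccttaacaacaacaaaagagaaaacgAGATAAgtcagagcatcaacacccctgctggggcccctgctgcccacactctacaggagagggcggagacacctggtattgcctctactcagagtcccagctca

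Coreceptors and adhesion molecules of T cells were the list with the most genes called lower, where 164 of all 4817 genes tested were. Of 24 tested genes, 9 were called lower in USP and none higher, with a median difference of -1.72, and 7 to 9 with 1 sample left out in turn. Cd8b1 and Cd8a, the 2 chains of the CD8 coreceptor used in the sort, were at the floor in USP. Cd8b1 was at 12.04, 12.38 and 11.78 in CD8 (at least 33.5-fold lower in USP, difference -5.07, adjusted p = 0.000511), and Cd8a was at 11.16, 10.23 and 10.16 (difference -3.52, adjusted p = 0.00455). Cd2, the adhesion receptor for CD48, was at the floor in USP and at 11.64, 11.67 and 10.85 in CD8 (difference -4.39, adjusted p = 0.00124). Cd6, a scavenger-type receptor of T cells, was at the floor in USP and at 11.41, 10.81 and 11.70 in CD8 (difference -4.31, adjusted p = 0.00122). Integrin chains were among the calls. Itgb7, which pairs with the alpha 4 and alpha E chains, was at the floor in USP and at 11.50, 11.27 and 10.18 in CD8 (difference -3.99, adjusted p = 0.00591). Itgb2, the shared chain of the leukocyte integrins, was at 7.52, 7.0 and 7.15 in USP against 9.37, 9.62 and 9.51 in CD8 (difference -2.28, adjusted p = 0.00397, and 0.0983 with the kind of values as a term). Crtam, an adhesion molecule of CD8 and NK cells, was at the floor in USP and at 9.50, 9.47 and 9.66 in CD8 (difference -2.55, adjusted p = 0.000743). Weaker calls were Cd96 (difference -2.97, adjusted p = 0.0402), with an adjusted p of 0.0942 to 0.154 without USP sample O or any one CD8 sample and of 0.0547 with the kind of values as a term, and Cd7 (difference -1.93, adjusted p = 0.0499), with 0.0958 to 0.171 for each sample left out but CD8 sample D. Cd28, the costimulatory receptor, was at the floor in USP and at 7.75, 9.53 and 8.66 in CD8 and did not pass the test (difference -1.65, adjusted p = 0.139). Cd5 was at the floor on all 12 arrays.

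Genes of the cytotoxic granule gave few calls. Of 16 tested, 3 were called lower in USP and 1 higher, and the median difference was -1.34. The difference was negative for 12 and positive for 4. Of all 4817 genes tested, 164 were called lower and 151 higher. Ctsw, a cathepsin of cytotoxic lymphocytes, was at the floor in USP and at 11.67, 11.50 and 11.56 in CD8, at least 23.9-fold lower in USP (difference -4.58, adjusted p = 0.000462). Cst7, a cystatin that inhibits granule cathepsins, was at 7.0, 7.03 and 7.0 in USP against 10.51, 10.46 and 10.82 in CD8 (difference -3.59, adjusted p = 0.000514). Prf1, the pore-forming protein perforin, was at the floor in USP and at 9.84, 10.80 and 10.43 in CD8 (difference -3.35, adjusted p = 0.00372). All 3 genes were at or next to the floor in every USP sample. The gene called higher was Lamp2, a general lysosomal membrane protein, at 8.59, 9.90 and 9.58 in USP against 7.14, 7.0 and 7.0 in CD8 (difference 2.31, adjusted p = 0.0293), with an adjusted p of 0.064 to 0.117 without USP sample O or Z or any one CD8 sample. The granzymes were not called. Gzmb was at the floor on all 12 arrays, Gzma was above the floor in CD8 sample C alone (8.55), and Gzmk was at the floor in USP and at 9.62, 10.26 and 7.0 in CD8 (adjusted p = 0.35). Gzmm was at the floor in USP and at 10.29, 8.73 and 8.10 in CD8 (difference -2.04, adjusted p = 0.145). Ccl5, a chemokine stored by CD8 cells, was at 10.70, 7.0 and 7.0 in USP against 10.78, 10.61 and 11.58 in CD8. USP sample N held it at about the CD8 level, and the difference of -2.76 had an adjusted p of 0.3 (0.0155 without USP sample N).

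Genes of T-cell identity, homing and quiescence gave 6 calls lower in USP of 27 tested and none higher, with a median difference of -0.95, and 5 or 6 with 1 sample left out. The share over all genes tested was 164 lower of 4817. Slfn2, a Schlafen family gene needed for T-cell quiescence, was at the floor in USP and at 12.04, 11.65 and 11.71 in CD8 (difference -4.80, adjusted p = 0.000511). Satb1, an organiser of chromatin in T cells, was at 7.0, 7.0 and 7.06 in USP against 10.91, 10.95 and 11.37 in CD8 (difference -4.06, adjusted p = 0.000514). Ltb, the cytokine lymphotoxin beta, was at 7.22, 7.0 and 7.0 in USP against 10.60, 10.64 and 10.79 in CD8 (difference -3.61, adjusted p = 0.000511). For these 3 genes, too, the USP levels were at or next to the floor. Cxcr3, a chemokine receptor of effector and memory T cells, was at the floor in USP and at 9.39, 9.57 and 9.26 in CD8 (difference -2.41, adjusted p = 0.00113). Slfn1 was lower as well (difference -2.23, adjusted p = 0.0301, and 0.0674 to 0.121 with any sample but CD8 sample C left out), and Il7r, described above, is the sixth. The homing receptor Ccr7 (difference -0.92, adjusted p = 0.152) and the transcription factors Klf2 (difference -1.54, adjusted p = 0.204) and Lef1 (difference -1.35, adjusted p = 0.327) lay below all CD8 levels in each USP sample without passing the test. Gimap4, a GTPase of lymphocyte survival, was at 11.63, 7.0 and 9.30 in USP against 12.83, 12.80 and 13.03 in CD8 (difference -3.58, adjusted p = 0.199).

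Lists of other lineages held at most 3 calls each, where 151 of all 4817 genes tested were called higher and 164 lower. Of 7 tested NK receptors only Klrd1, the CD94 chain that CD8 cells can also carry, was called, at the floor in USP and at 9.91, 9.62 and 9.80 in CD8 (difference -2.77, adjusted p = 0.000719). Of 11 tested genes of the B lineage, 1 was called lower and none higher (median -0.22), and this was Il7r. The B-cell marker Ms4a1 was at 12.78 in CD8 sample B and at the floor in all other samples. A probe set of Ighm, the immunoglobulin heavy chain constant region, was at 7.0, 7.40 and 7.0 in USP against 10.18, 10.30 and 10.37 in CD8 (difference -3.15, adjusted p = 0.000989), whereas another with 7.0, 8.02 and 9.84 in USP against 11.09, 11.30 and 11.30 in CD8 was not called (adjusted p = 0.107, and 0.0155 without USP sample Z), and the third was at or next to the floor in all samples (difference 0.02). Of 15 tested granulocyte and monocyte genes, 3 were called higher and none lower (median 1.15). S100a8, a calcium-binding protein of neutrophils, was at 11.65, 11.78 and 10.99 in USP against 7.94, 7.0 and 7.0 in CD8 (difference 4.16, adjusted p = 0.0048). Its partner S100a9 was at 9.72, 9.52 and 9.23 in USP against 7.69, 7.0 and 7.0 in CD8 (difference 2.26, adjusted p = 0.0112), with an adjusted p of 0.0516 without CD8 sample D and of 0.369 with the kind of values as a term. Cd14 was at 9.0, 9.16 and 10.64 in USP and at the floor in CD8 (difference 2.60, adjusted p = 0.0437), and its adjusted p was 0.0668 to 0.154 with each of 5 samples left out (all but USP sample Z). The granulocyte marker sum given above was higher in each USP sample than in any CD8 sample, whereas the ranges of the monocyte sum overlapped. These sums include S100a8, S100a9 and Cd14 and are no separate evidence. Mpo and Elane were at the floor. Genes of neutrophil granules stood out in USP sample O. Lcn2, lipocalin 2, was at 9.25, 12.74 and 7.0 in USP and at the floor in CD8 (difference 2.66, adjusted p = 0.423), and Ngp was at 7.47, 10.62 and 7.0 in USP and at the floor in CD8. Camp (10.91), Ltf (9.81) and Chil3 (9.46) were above the floor in USP sample O alone. None of these 5 was called. Whether granulocytes add to USP sample O was not tested, and S100a8 and Cd14 were above 8 in all USP samples. No gene was called among 7 erythroid (median 0.07) and 6 megakaryocyte genes (median 0.61). Hba-a1, the alpha globin, was at 11.27, 10.94 and 10.74 in USP against 10.88, 7.0 and 7.0 in CD8 (difference 2.69, adjusted p = 0.329), with the level in CD8 sample B in the range of USP and an adjusted p of 0.00552 without it.

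**Figure D4:**
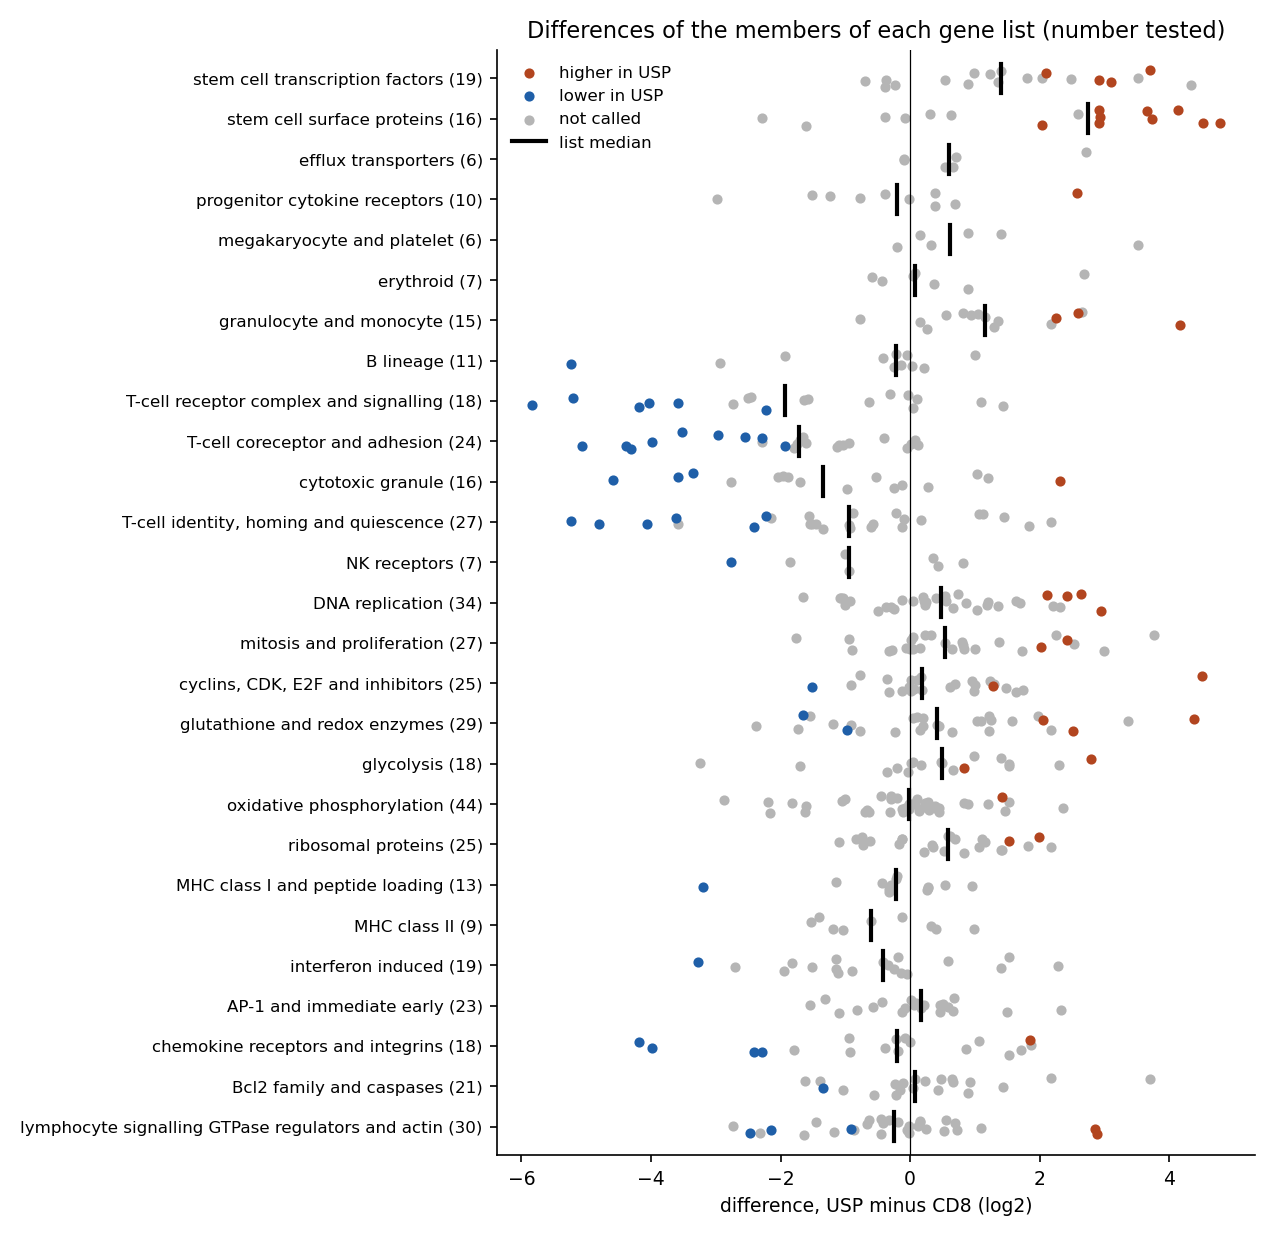
Log2 difference USP minus CD8 (horizontal axis) of every tested gene of each list (rows), with called genes coloured by direction and the list median as a bar. Stem cell surface proteins and transcription factors have medians of 2.75 and 1.40, and the T-cell lists have medians of -0.95 to -1.93.

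A few cell cycle genes were called higher in USP, as were 151 of all 4817 genes tested. Of 34 tested genes of DNA replication, 4 were called higher and none lower, with a median difference of 0.47. Pcna, the sliding clamp of the polymerases, was at 9.56, 9.99 and 10.29 in USP and at the floor in CD8 (difference 2.95, adjusted p = 0.00287). Cdc7, the kinase that fires origins, was at 9.81, 9.52 and 8.94 in USP and at the floor in CD8 (difference 2.42, adjusted p = 0.00818). Both calls held with any 1 sample left out. Top2a, topoisomerase II alpha, was at 9.80, 10.24 and 8.89 in USP and at the floor in CD8 (difference 2.64, adjusted p = 0.0198), and Mcm3, a subunit of the replicative helicase, at 9.05, 8.72 and 9.84 in USP against 7.29, 7.0 and 7.0 in CD8 (difference 2.11, adjusted p = 0.0279). Without USP sample N or any one CD8 sample the adjusted p was 0.071 to 0.088 for Top2a and 0.0761 to 0.11 for Mcm3. The list accordingly held 2 calls without USP sample N, CD8 sample B or CD8 sample C. Of 27 tested genes of mitosis, Smc2, a condensin subunit (difference 2.42, adjusted p = 0.0104), and Mad2l1, of the spindle checkpoint (difference 2.02, adjusted p = 0.019), were called higher. None of the list was called without CD8 sample B or CD8 sample D, and 4 were called without USP sample Z or CD8 sample C. The adjusted p was 0.0539 for Smc2 without CD8 sample B or D, and 0.0507 to 0.0814 for Mad2l1 without USP sample O or Z or CD8 sample B or D and 0.0584 with the kind of values as a term. Mki67, the proliferation antigen, split the USP samples, at 11.48, 11.49 and 7.0 in USP and the floor in CD8 (difference 2.99, adjusted p = 0.345). Without USP sample Z its adjusted p was 0.00143. Stmn1, a regulator of microtubules in dividing cells, was at 11.76, 11.65 and 12.31 in USP against 7.0, 10.41 and 7.0 in CD8 (difference 3.77, adjusted p = 0.127, and 0.00464 without CD8 sample C). Of 25 tested cyclins, kinases, E2F genes and inhibitors, Tfdp1 and Cdk2ap1 (difference 1.28, adjusted p = 0.0269, and 0.0522 to 0.0902 without USP sample N or any one CD8 sample) were called higher. Ccnd3, the D cyclin of lymphocytes, was called lower, at 9.72, 9.20 and 9.89 in USP against 10.87, 11.29 and 11.19 in CD8 (difference -1.51, adjusted p = 0.0303), with an adjusted p of 0.0689 to 0.112 without USP sample N or any one CD8 sample and of 0.0991 with the kind of values as a term.

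Metabolic genes differed in few members, and 151 of all 4817 genes tested were called higher and 164 lower. Among 29 tested glutathione and redox enzymes, 3 were called higher and 2 lower (median 0.42). Beside Gstm1 the mitochondrial superoxide dismutase Sod2 (difference 2.52, adjusted p = 0.03) and the thioredoxin reductase Txnrd1 (difference 2.05, adjusted p = 0.0454) were higher, and catalase, Cat (difference -1.66, adjusted p = 0.038), and the microsomal transferase Mgst2 (difference -0.98, adjusted p = 0.0344) were lower. With the samples left out in turn, the adjusted p of Sod2 was 0.1 to 0.121 without USP sample N or any one CD8 sample, that of Txnrd1 0.1 to 0.155 without any sample but USP sample N, that of Cat 0.0671 to 0.137 without any sample but USP sample N, and that of Mgst2 0.0556 to 0.0893 without any sample but CD8 sample C. With the kind of values as a term the adjusted p was 0.316 for Txnrd1 and 0.162 for Mgst2. Aldh2, a mitochondrial aldehyde dehydrogenase, was at 10.73, 11.45 and 12.08 in USP against 7.0, 7.0 and 10.14 in CD8. It did not pass the test (difference 3.37, adjusted p = 0.151) and did so without CD8 sample D (adjusted p = 0.0268). Of 18 tested glycolytic genes, Hk1, the hexokinase that commits glucose, was at 9.85, 10.39 and 11.56 in USP against 7.91, 7.86 and 7.66 in CD8 (difference 2.79, adjusted p = 0.0336), with an adjusted p of 0.0973 to 0.132 without USP sample O or any one CD8 sample. The other glycolytic call was Pfkm (difference 0.83, adjusted p = 0.0433, and 0.0957 to 0.108 without any one CD8 sample, and 0.827 for a difference of 0.38 with the kind of values as a term). Of 44 tested genes of oxidative phosphorylation, 1 was called (median -0.02). Atp5e, a small subunit of the ATP synthase, was at 12.10, 11.99 and 12.01 in USP against 10.61, 10.48 and 10.75 in CD8 (difference 1.42, adjusted p = 0.0064), and the adjusted p was 0.153 with the kind of values as a term. Of 25 tested ribosomal proteins, Rps24 (difference 1.99, adjusted p = 0.0296) and Rps10 (difference 1.52, adjusted p = 0.0398) were higher, with an adjusted p of 0.0501 to 0.106 for Rps24 and of 0.0679 to 0.137 for Rps10 without any sample but USP sample Z.

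Lists of antigen presentation and interferon genes gave at most 1 call each, and those of trafficking and of the cytoskeleton gave 5 each. Among all 4817 genes tested, 151 were called higher and 164 lower. Of 13 tested genes of MHC class I and peptide loading, Psmb10, a catalytic subunit of the immunoproteasome, was called lower, at 8.29, 7.36 and 7.40 in USP against 11.02, 10.95 and 10.66 in CD8 (difference -3.19, adjusted p = 0.00634). B2m, the light chain of class I, was at 10.81, 10.92 and 10.46 in USP against 10.20, 10.70 and 10.46 in CD8 and did not pass the test. Of 19 interferon-induced genes, Ifi35 was called lower, at 8.59, 7.64 and 8.60 in USP against 11.98, 11.52 and 11.18 in CD8 (difference -3.28, adjusted p = 0.0102), with an adjusted p of 0.0502 without CD8 sample C. No gene was called among 9 class II genes (median -0.61) and 23 AP-1 and immediate early genes (median 0.17). Of 18 tested genes of chemokine receptors, integrins and other genes of trafficking, Cxcr4, the receptor that keeps stem cells in the marrow, was the gene called higher, at 11.06, 10.50 and 10.90 in USP against 9.21, 8.52 and 9.18 in CD8 (difference 1.85, adjusted p = 0.024). Its adjusted p was 0.0631 to 0.0708 without USP sample N or Z or CD8 sample B or D and 0.051 with the kind of values as a term. The 4 called lower were Itgb2, Itgb7 and Cxcr3, given above, and Rgs10, a regulator of G protein signalling that was at the floor in USP and at 11.24, 10.91 and 11.41 in CD8 (difference -4.18, adjusted p = 0.000511). Among 21 genes of the Bcl2 family and caspases, Casp8 was called lower (difference -1.35, adjusted p = 0.0146), with an adjusted p of 0.0525 without CD8 sample B and of 0.1 with the kind of values as a term. Casp4 was at 11.41, 11.62 and 9.08 in USP and at the floor in CD8, with an adjusted p of 0.0539 for a difference of 3.70 (0.00143 without USP sample Z). Bcl2 itself was at 7.0, 12.24 and 12.70 in USP against 8.36, 10.04 and 7.0 in CD8, so that samples of each population differed from each other by more than 3 log2 units. Among 30 tested regulators of lymphocyte GTPases and actin, 2 were called higher and 3 lower (median -0.25). Both called higher are thymosins, small proteins that bind actin monomers. Tmsb10 was at 12.19, 12.04 and 12.02 in USP against 9.42, 8.82 and 9.37 in CD8 (difference 2.88, adjusted p = 0.00274), and Tmsb4x had a difference of 2.85 (adjusted p = 0.0104, and 0.0506 to 0.0533 without any one CD8 sample). Rasgrp2, an activator of Rap1, was at the floor in USP and at 9.08, 9.60 and 9.71 in CD8 (difference -2.47, adjusted p = 0.00404). Ezr, the membrane linker ezrin (difference -2.14, adjusted p = 0.0125, and 0.054 to 0.0601 without CD8 sample B or D), and Rac1 (difference -0.91, adjusted p = 0.0161, and 0.231 with the kind of values as a term), a GTPase of the cytoskeleton, were lower too.

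The largest differences lower in USP that belong to no list described so far included 2 variable segments of the T-cell receptor, Trav9d-3 (difference -4.35) and Trbv1 (difference -4.18), whose probes may read related segments. Gmip, a GTPase-activating protein, had a difference of -4.98 (adjusted p = 0.000989), and Padi2, an arginine deiminase, of -4.29. These calls held with any 1 sample left out. Of 82 called genes with several tested probe sets, 66 had all their probe sets in 1 direction, 12 had all of them called, and none was called in both directions.

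Arrays outside the comparison gave a view of the called probe sets that the test had not used, here as a description with no test. The LSP mean lay above the CD8 mean for 191 of the 196 probe sets called higher (97.4%) and for 3 of the 214 called lower (1.4%), against 46.7% of all tested. LSP shares the SP sort with USP, and the CD8 values are the same in both. For 75 of the 196 every CD8 sample was at the floor, so that an LSP mean below CD8 was not possible. The paper took the single SP cells from the lowest tip of the SP region, so that none comes from the USP gate. In these single cells, the median probe set called higher was over a log2 level of 9 in 3.0 of 12. The median one called lower was over it in 1.0 of 12, which was also the median over all tested. Of the probe sets called higher 29.1% were over that level in 6 or more cells, of those called lower 12.1%, and of all tested 16.1%. No single cell exceeded it for 19.9% of those called higher, 36.9% of those called lower and 36.6% of all tested. In SCE, 35.7% of those called higher and 15.4% of those called lower were over the level in 3 or more of 5, against 19.2% of all tested. These sets were not matched for level. Their median USP level was 9.95 for those called higher, 7.02 for those called lower and 7.95 for all tested. Detection on other SP arrays thus follows in part from the choice of the called probe sets, and is no separate evidence for the calls. Single genes differed widely. Cd24a and the brighter probe set of Lmo2 were over a level of 9 in all 12 single cells and all 5 SCE, and the other probe set of Lmo2 in 5 of 12 cells and 2 of 5 SCE, whereas Myb was over it in 0 of 12 and Meis1 in 5 of 12. Zap70, Il7r and Cd3d were at the floor in all LSP samples and over a level of 9 in none of the 12 single cells. Other T-cell genes called lower were above the floor in LSP sample M, among them Cd3e (8.59) and Trav9d-3 (10.21). Of the 214 probe sets called lower, 56 were at the floor in all LSP samples.

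**Figure D5:**
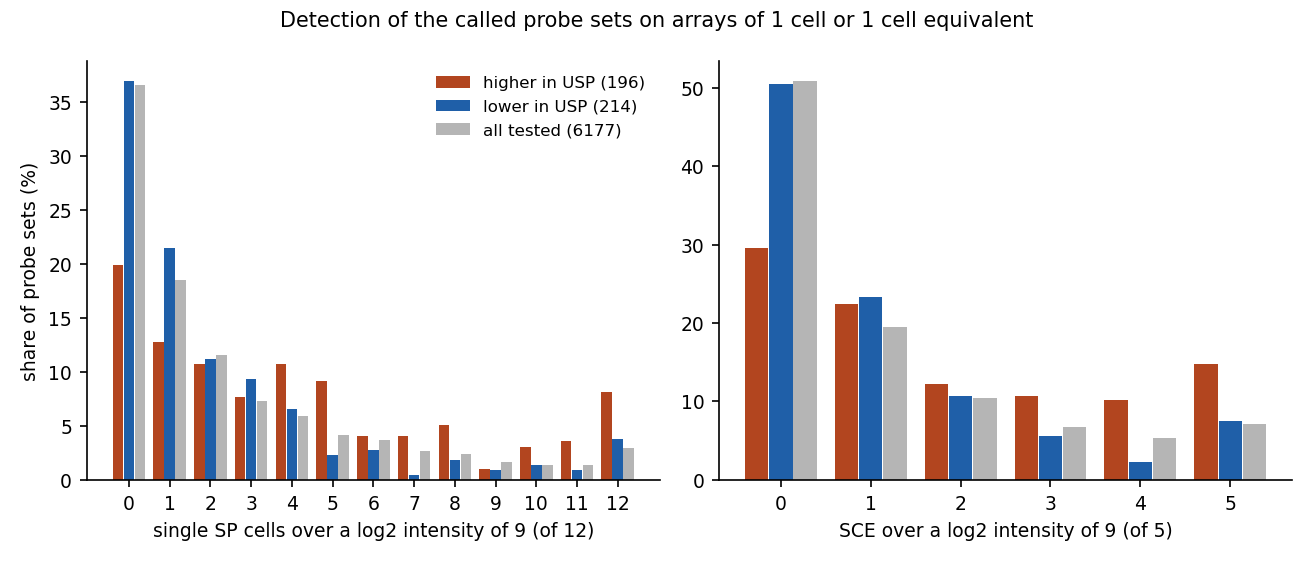
Share of probe sets (vertical axis, percent) by the number of the 12 single SP cells (left) or the 5 SCE (right) with a log2 intensity over 9 (horizontal axis), for probe sets called higher in USP, called lower in USP and all tested. The bar at no single cell stands at 19.9% for those called higher, against 36.9% for those called lower and 36.6% over all tested. The sets are not matched for their level in USP.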

How the data were processed

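Ten-cell USP and CD8 samples were read on Affymetrix MG-U74Av2 arrays after reverse transcription and PCR of sorted cells. The values deposited by the authors are signal intensities on a linear scale, and their trimmed mean (2% from each end) is near 250 on every array. The study's methods describe RMA log2 values, but the deposited intensities are linear and 4 USP arrays hold negative values, and they were used as given. Intensities were taken to log2 levels here, with values under a level of 7 set to 7. Duplicate arrays of a sample were averaged, and the levels of 6 samples were fitted by lmFit and eBayes (limma 3.58.1, R 4.3.3), with Benjamini-Hochberg adjustment over 6177 probe sets. The fit was tested on simulated data. Tables and figures used Python 3.11.15, numpy 2.4.6, pandas 2.3.3 and matplotlib 3.10.9. The number of samples limits the precision. Of 12422 probe sets, 10833 name 1 gene in the platform annotation, 396 several and 1193 none, and genes were named from the first kind only. A gene in a list was represented by its probe set with the highest mean level. Named genes were drawn from the 12 called genes with the largest difference in each direction, up to 6 genes per list with the largest difference whatever their p, the cell type markers, the genes the study selected for display or quantitative PCR, and Lmo2, Myb, Zap70 and Il7r, and not every gene of these lists and markers is given. Other named genes, among them Cd81, Plcg2, Laptm4b, Clic4, Cd63, Cd9, Ighm, Crtam, Cdk2ap1, Atp5e, Pfkm, Mgst2, Rac1, Acot13, Tlk2 and Inpp5d, were picked with their values in view. The members and the gene lists were chosen with earlier results of these data known. The alternatives were the floor, the filter, the scaling, the handling of duplicates and of LSP, the eBayes settings, the methods' t-test and leaving out each sample.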

Additional observations from a re-analysis of the deposited data

How the results depend on the processing

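The numbers of probe sets called higher (196) and lower (214) depended on the setting. They were 61 and 110 with no filter on low values, 69 and 113 with a trend and robust variance in eBayes, and 466 and 480 with the methods' t-test at its unadjusted threshold. With Benjamini-Hochberg adjustment of that test 99 were higher. Leaving out 1 sample gave 79 to 340 higher and 168 to 225 lower. Floors of 6 and 8, the log2 of the mean intensity, a stricter filter, quantile or median scaling, a fit with LSP and a random block for the sample each stayed within 1.5 times of both numbers. The probe sets called changed more than these numbers. Under these settings 124 to 186 of the 196 and 132 to 212 of the 214 were still called, fewest in the fit with LSP. The labels number the 2 arrays of a sample, and these numbers do not pair USP with CD8 samples. A fit of the 12 arrays with this number as a replicate block called 262 higher and 293 lower, of which 146 and 173 were called in the fit of samples. Both alternatives added after seeing the data bear on the 2 kinds of deposited values. The fit with the kind as a term used all ten-cell arrays, LSP included, with the sample as a random block. With the kind as a term 246 were higher and 320 lower, and with USP sample Z as the only USP sample, whose spread is assumed to be that of CD8, 755 were higher and 270 lower. A comparison within 1 kind of values with replicates in both populations was not run, since only USP sample Z has positive values only. Of the 93 named probe sets that were called, 54 were called with each sample left out in turn and 36 under every alternative. With the kind of values as a term 13 of them were lost, as given beside each, and with USP sample Z as the only USP sample 23. The 1 direction that turned was that of the Ighm probe set next to the floor, at -0.07 with the arrays centred on the median. Values near the floor carry no order, and a difference against the floor is limited by the floor itself.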

Other observations

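The USP samples stood apart from both other populations for a few called genes. These were chosen after their values were seen, from 357 called probe sets with 1 gene, as those with over 1 log2 unit between all USP and all LSP samples on the side away from CD8. There were 9, of which 4 were higher and 5 lower in USP than in CD8. The share of all tested probe sets with such a gap was not counted. The number is therefore no result about how often USP differs from LSP. No test of USP against LSP was made. Tnni3 was at 10.93, 11.32 and 12.20 in USP against 7.83, 7.0 and 7.26 in LSP samples A, B and M, and at the floor in CD8. Cdc7 was at 9.81, 9.52 and 8.94 in USP and at the floor in all LSP and all CD8 samples. S100a9 had LSP levels of 7.0, 7.0 and 8.18, below each USP level. Acot13, a thioesterase of mitochondria, was at 7.43, 7.0 and 7.04 in USP against 10.80, 8.73 and 9.63 in LSP and 11.17, 10.70 and 11.74 in CD8 (difference USP minus CD8 -4.05, adjusted p = 0.0032). Tlk2, a kinase of chromatin assembly, was at 7.0, 7.06 and 7.39 in USP against 11.22, 9.95 and 11.49 in LSP and 9.0, 10.05 and 10.09 in CD8 (difference USP minus CD8 -2.56, adjusted p = 0.0188, and 0.0686 to 0.0753 without USP sample N or O or CD8 sample C or D). Inpp5d, the lipid phosphatase SHIP that restrains signalling in blood cells, was at the floor in USP and at 8.93, 8.41 and 9.61 in LSP and 10.11, 8.77 and 9.80 in CD8 (difference USP minus CD8 -2.56, adjusted p = 0.0232, and 0.0651 to 0.098 without any sample but CD8 sample C).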
